A study of Homo sapiens with 12 samples.

Results

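The subject here is 10 genes that encode cyclins and cyclin-dependent kinases (CDKs), the proteins that carry a cell through its division cycle. They are the cyclin genes CCND1, CCND3, CCNE1, CCNE2, CCNA2, CCNB1 and CCNB2 and the kinase genes CDK1, CDK2 and CDK4. They were taken by name from the 11963 genes on the array, and all 10 were measured, by 17 probe sets in all. A gene was tested by its probe set with the highest mean value. RNA came from cultures of MDA-MB-231, an established human triple-negative breast cancer cell line, on 12 arrays with 3 biological replicates in each of 4 groups. The groups, all harvested after 24 h, were 5 uM SAHA with 2.5 mM pargyline (COMBO), 5 uM SAHA alone, 2.5 mM pargyline alone, and the vehicle DMSO. SAHA (vorinostat) inhibits histone deacetylases, and pargyline inhibits monoamine oxidases and can inhibit the histone demethylase LSD1. All groups are of this 1 line, which limits them as a model of breast cancer.

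A CDK is active only when bound to a cyclin. In G1 phase the D-type cyclins activate CDK4, which begins the phosphorylation of the retinoblastoma protein and so frees E2F transcription factors. Cyclin E with CDK2 then starts DNA replication, cyclin A acts with CDK2 in S phase and with CDK1 later, and cyclin B with CDK1 drives mitosis. The transcripts of cyclins A and B and of CDK1 rise late in the cycle, under CCAAT boxes bound by NF-Y and a cell cycle homology region (CHR) that the DREAM and MuvB complexes bind.

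The promoter sequences of the late genes are shown because these genes moved together in some comparisons and not in others. They are the 250 bases before the annotated start of transcription (RefSeq, build GRCh38.p14), 5′ to 3′ on the strand of the gene. Capitals mark CCAAT, the CHR letters TTTGAA or TTTAAA, and the E2F letters TTTGGCGC, TTTGCCGC, TTTCGCGC or TTTCCCGC, each searched on both strands. CDK1 has 2 annotated starts. For the second only the last 30 bases before it are printed. The windows are chr4:121823884-121824133 (minus strand) for CCNA2, chr5:69166900-69167149 (plus) for CCNB1, chr15:59104896-59105145 (plus) for CCNB2, and chr10:60778081-60778330 and chr10:60778448-60778477 (plus) for CDK1.
CCNA2: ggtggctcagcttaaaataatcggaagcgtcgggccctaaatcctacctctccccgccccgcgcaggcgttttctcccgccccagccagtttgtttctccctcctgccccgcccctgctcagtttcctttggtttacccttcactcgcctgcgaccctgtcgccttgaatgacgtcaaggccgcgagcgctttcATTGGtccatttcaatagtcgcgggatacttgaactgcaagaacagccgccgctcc
CCNB1: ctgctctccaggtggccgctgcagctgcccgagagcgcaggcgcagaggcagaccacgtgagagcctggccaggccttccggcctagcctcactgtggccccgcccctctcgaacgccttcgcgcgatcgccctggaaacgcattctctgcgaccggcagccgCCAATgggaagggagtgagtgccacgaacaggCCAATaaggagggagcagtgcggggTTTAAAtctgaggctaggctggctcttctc
CCNB2: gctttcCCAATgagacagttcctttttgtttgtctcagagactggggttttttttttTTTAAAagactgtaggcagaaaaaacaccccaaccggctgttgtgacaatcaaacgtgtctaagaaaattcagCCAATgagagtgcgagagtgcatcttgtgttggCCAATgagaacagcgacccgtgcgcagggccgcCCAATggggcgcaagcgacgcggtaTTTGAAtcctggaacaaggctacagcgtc
CDK1, first start: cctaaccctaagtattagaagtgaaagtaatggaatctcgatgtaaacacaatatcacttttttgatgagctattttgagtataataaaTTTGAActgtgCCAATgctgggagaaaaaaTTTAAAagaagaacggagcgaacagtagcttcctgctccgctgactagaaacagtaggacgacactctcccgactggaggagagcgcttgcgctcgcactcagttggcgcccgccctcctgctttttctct
CDK1, second start: ccctttagcgcggtgagTTTGAAactgctc

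The CCNB1 window held CCAAT at 87 and 55 bases before the start and TTTAAA at 30 bases. That of CCNB2 held CCAAT at 244, 120, 87 and 54 bases, TTTAAA at 193 bases and TTTGAA at 29 bases. CCNA2 held ATTGG, the reverse complement of CCAAT, at 56 bases and none of the CHR or E2F letters searched. The 250 bases before the second CDK1 start held ATTGG at 78 and 46 bases, TTTGAA at 69 and 13 bases and TTTCGCGC at 128 bases. The first CDK1 window held TTTGAA at 161 bases, CCAAT at 150 bases and TTTAAA at 131 bases. Windows of CCND3 held 1 CCAAT box or none, that of CCNE1 held TTTAAA at 28 bases, and that of CDK4 held no match. Of the 10 windows of the 7 members matched, that before the second CDK1 start was the 1 with an E2F match. Of 35116 such windows over all genes, 32.0% held a CCAAT box, 21.9% a CHR match and 2.79% an E2F match. A match is a run of letters and no evidence of binding, and the arrays do not measure binding. Only the exact letters listed were searched, so a window without a match, such as that of CCNA2 for the CHR, may still hold an element in other letters.

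The values are log2 intensities, so a difference of 1 is a 2-fold change of signal. In RNA from a whole culture, fewer cells with a transcript and less of it per cell cannot be told apart. Array medians lay between 5.24 and 5.38 on all 9 treated arrays, above those of the DMSO arrays, between 5.15 and 5.2, and Pearson's r of replicate arrays ran from 0.997 to 0.999. The 3' minus 5' signal of the actin controls averaged 0.894 in COMBO, 0.841 in SAHA and 0.805 in pargyline arrays and 0.791 in DMSO arrays. Each of the 3 COMBO values lay above each DMSO value. Of 6 exact two-sided permutation tests against DMSO, the 3 of the medians and that of COMBO actin reached p = 0.1, the lowest that 3 arrays against 3 allow (adjusted p = 0.15). All 7 measured markers of the line (VIM, CD44, EGFR, AXL, CAV1, KRT18 and FOSL1) lay above the median gene by their mean over the 12 arrays. VIM was between 14.80 and 14.90 in the 4 group means. In COMBO, SAHA and DMSO arrays FOSL1 averaged 8.65, 9.47 and 11.63, CD44 12.20, 11.56 and 13.67, and CAV1 12.99, 13.25 and 14.63. In the same order EGFR averaged 11.65, 11.26 and 11.54, AXL 12.81, 13.04 and 13.84, and KRT18 12.62, 12.96 and 13.35. The summed log2 values of these 7 genes ran from 85.35 to 86.34 in COMBO, from 85.66 to 87.71 in SAHA, from 92.33 to 92.88 in pargyline and from 93.45 to 93.72 in DMSO arrays. The 6 leukocyte and 7 fibroblast markers all lay below the median gene. Of 7 luminal and epithelial markers 1, GATA3, lay above it by that mean. ESR1, PGR, FOXA1 and CDH1 had group means between 2.05 and 3.15, while GATA3 averaged 5.75 in COMBO and 6.27 in SAHA arrays, against 9.42 in pargyline and 9.23 in DMSO arrays. EPCAM averaged 5.27 in COMBO and 5.94 in SAHA arrays, against 7.10 in pargyline and 8.42 in DMSO arrays. ERBB3 went the other way, at 7.20 in COMBO and 7.47 in SAHA arrays, against 2.92 in pargyline and 2.82 in DMSO arrays. The part of these marker differences in the results below was not tested, and results with array medians subtracted are given where they differ.

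**Figure D1:**
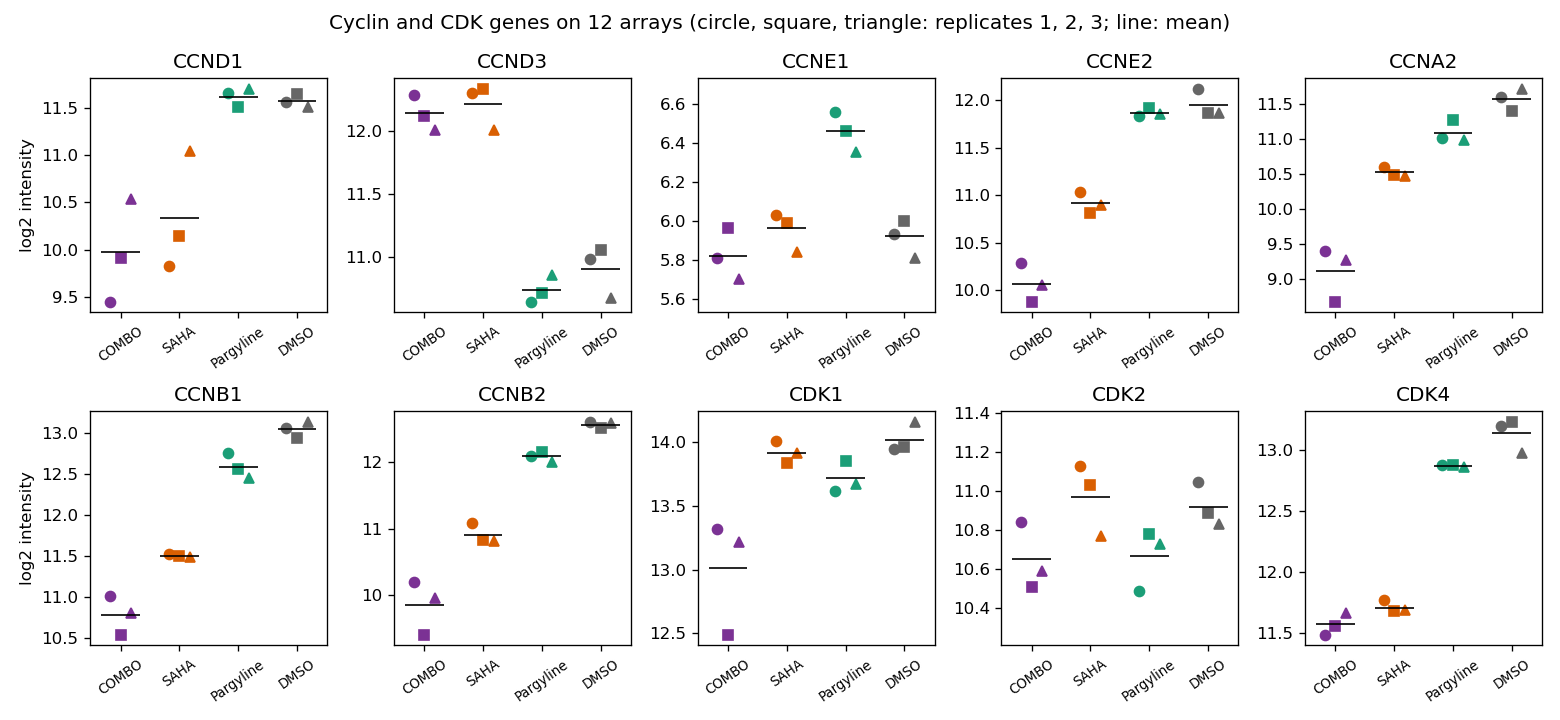
Log2 intensity (vertical axis, a separate range for each gene) of the 10 genes on each array, with groups from left to right COMBO, SAHA, pargyline and DMSO. Symbols are replicates 1 to 3 and lines are group means. CCND3 is high in the 6 arrays with SAHA, CCNA2, CCNB1 and CCNB2 step down towards COMBO, and CCND1 is spread widely in the SAHA and COMBO groups.

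SAHA against DMSO asks what the deacetylase inhibitor did alone. CCNB2, CCNB1, CDK4, CCND1, CCNA2 and CCNE2 fell by 2.05-fold to 3.17-fold, CCND3 rose by 2.46-fold, and CCNE1, CDK1 and CDK2 did not pass. That is 6 lower and 1 higher of 10 at a Benjamini-Hochberg adjusted p under 0.05 in limma, where 46.2% of all genes passed, 23.1% lower and 23.0% higher. The groups did not overlap for 7 of the 10, against 52.9% of all genes. After subtraction of array medians (centring), 36.9% of called genes were higher, against 49.9% as deposited, and the median gene stood at -0.10. The median change was -1.04 over the 10 genes and 0.0 over all genes.

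Pargyline against DMSO asks the same of the monoamine oxidase and LSD1 inhibitor. CCNE1 rose by 1.45-fold, CCNB1 fell by 1.37-fold and CDK4 fell by 1.2-fold, and the other 7 did not pass. Over all genes 15.9% passed, with 8.48% higher and 7.45% lower. The groups did not overlap for 7 members, against 30.8% of all genes. The median change was -0.26 over the 10 genes and -0.02 over all genes. Centring moved the median gene to -0.15, with 12.4% of called genes higher against 53.2%, and 6 members lower. CCNA2, CCNB2, CDK1 and CDK2 then joined CCNB1 and CDK4. The CCNB1 call was lost without DMSO replicate 1 or 3 or pargyline replicate 2 or 3 (changes from -0.45 to -0.38, limma adjusted p from 0.0682 to 0.0925). The CDK4 call was lost without DMSO replicate 1 or 2 or any 1 pargyline replicate (changes from -0.27 to -0.22, adjusted p from 0.0611 to 0.0993). In a fit of pargyline and DMSO alone, CCNA2 and CCNB2 passed as lower and CDK4 did not (limma adjusted p = 0.0435, 0.00515 and 0.0647).

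COMBO against DMSO asks what the drugs did together. CCNB2, CCNA2, CCNB1, CCNE2, CCND1, CDK4 and CDK1 fell by 2.02-fold to 6.63-fold, CCND3 rose by 2.34-fold, and CCNE1 and CDK2 did not pass. Of all genes 48.3% passed, 24.0% lower and 24.3% higher. The groups did not overlap for 8 members, against 66.0% of all genes. The median change was -1.58 over the members and -0.01 over all genes. Centring moved the median gene to -0.17, with 25.0% of called genes higher against 50.3%, and CCNE1 and CDK2 then also passed as lower. The 3 comparisons with vehicle share the 3 DMSO arrays.

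**Figure D2:**
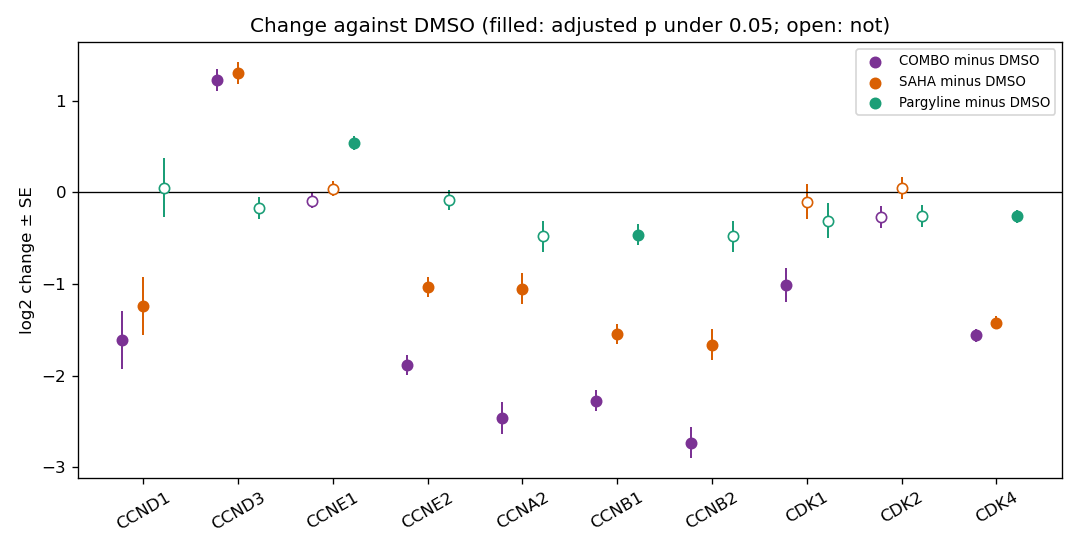
Log2 change against DMSO with its standard error (vertical axis) for the 10 genes, in the order COMBO, SAHA, pargyline. Filled points had a limma adjusted p under 0.05. COMBO lies below SAHA for CCNE2, CCNA2, CCNB1, CCNB2 and CDK1, while the 2 lie close together for CCND3 and CDK4.

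CDK4 and CCND1 fell and CCND3 rose in both groups with SAHA. CDK4 is the kinase that D-type cyclins activate. It read 11.49, 11.56 and 11.67 in COMBO, 11.77, 11.68 and 11.69 in SAHA and 12.88, 12.88 and 12.86 in pargyline, against 13.20, 13.23 and 12.98 in DMSO arrays. The 6 arrays with SAHA lay far below the other 6, and the COMBO and SAHA values did not overlap but were close. The change was -1.56 ± 0.07 in COMBO (SE, n = 3 per group), -1.42 ± 0.07 in SAHA and -0.26 ± 0.07 in pargyline, all against DMSO (limma adjusted p = 7.24e-08, 1.5e-07 and 0.0265). COMBO differed from SAHA by -0.14 ± 0.07, which did not pass (adjusted p = 0.215), and from pargyline by -1.30 ± 0.07 (2.91e-07).

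CCND1 encodes cyclin D1, which growth factor signals induce. It read 9.45, 9.91 and 10.54 in COMBO, 9.83, 10.14 and 11.04 in SAHA and 11.66, 11.51 and 11.70 in pargyline, against 11.56, 11.65 and 11.51 in DMSO arrays. The COMBO and SAHA values overlapped each other and lay below all pargyline and DMSO values. Their SDs of 0.54 in COMBO and 0.63 in SAHA were the widest of any member on the tested probe sets, against 0.10 in pargyline and 0.07 in DMSO arrays. The change against DMSO was -1.61 ± 0.32 in COMBO, -1.24 ± 0.32 in SAHA and 0.05 ± 0.32 in pargyline (adjusted p = 0.0018, 0.00899 and 0.946). Without SAHA replicate 3, the highest of its group, the SAHA change was -1.59 (adjusted p = 0.000878). The second probe set of CCND1 gave -1.27 ± 0.36 in COMBO and -0.96 ± 0.36 in SAHA, where SAHA did not pass (adjusted p = 0.0161 and 0.0591 over all probe sets). In pargyline this probe set gave 0.39 ± 0.36, which did not pass (limma adjusted p = 0.578). Its pargyline values of 11.72, 11.72 and 11.47 lay above its DMSO values of 11.25, 11.23 and 11.26.

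CCND3 encodes cyclin D3, which can also activate CDK4. It read 12.28, 12.12 and 12.01 in COMBO, 12.30, 12.33 and 12.01 in SAHA and 10.65, 10.72 and 10.86 in pargyline, against 10.99, 11.06 and 10.68 in DMSO arrays. It was thus the 1 member higher in all 6 arrays with SAHA than in all 6 without. The rise was 1.23 ± 0.12 in COMBO and 1.30 ± 0.12 in SAHA over DMSO (adjusted p = 1.53e-05 and 1.22e-05), and the pargyline difference of -0.17 ± 0.12 did not pass (0.449). COMBO differed from SAHA by -0.07 ± 0.12 (adjusted p = 0.75). Over the 12 arrays CCND3 correlated with CCND1 at r = -0.915 and with CDK4 at r = -0.941, a description that the 4 groups largely set.

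The E-type cyclins, which activate CDK2 at the start of S phase, also differed from each other. CCNE2 read 10.29, 9.88 and 10.05 in COMBO, 11.04, 10.81 and 10.90 in SAHA and 11.84, 11.92 and 11.86 in pargyline, against 12.12, 11.87 and 11.87 in DMSO arrays. COMBO lay below SAHA and SAHA below the others with no overlap, while pargyline and DMSO overlapped. The change was -1.88 ± 0.11 in COMBO, -1.03 ± 0.11 in SAHA and -0.08 ± 0.11 in pargyline (adjusted p = 4.07e-07, 2.46e-05 and 0.704). COMBO was lower than SAHA by a change of -0.84 ± 0.11 (adjusted p = 0.00136). The second CCNE2 probe set gave -2.16 ± 0.19 in COMBO and -1.54 ± 0.19 in SAHA against DMSO, and its COMBO against SAHA difference of -0.62 ± 0.19 did not pass (adjusted p = 0.0603 over all probe sets).

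CCNE1 encodes the other cyclin E and had a low signal, with every group mean under 7.06, the level of the median gene. It read 5.81, 5.96 and 5.70 in COMBO, 6.03, 5.99 and 5.84 in SAHA and 6.56, 6.46 and 6.35 in pargyline, against 5.93, 6.0 and 5.81 in DMSO arrays. The pargyline arrays lay above all others, and the other 3 groups overlapped. The pargyline rise was 0.54 ± 0.08 (adjusted p = 0.00269). The changes in COMBO (-0.09 ± 0.08) and SAHA (0.04 ± 0.08) against DMSO did not pass as deposited (adjusted p = 0.415 and 0.862). With centring the COMBO change passed, at -0.25 (adjusted p = 0.0411), where the median gene stood at -0.17. COMBO was lower than pargyline, at -0.63 ± 0.08 (adjusted p = 0.000136), as was SAHA, at -0.50 ± 0.08 (0.000693).

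CDK2, the kinase of cyclins E and A, passed in none of the 7 comparisons as deposited. It read 10.84, 10.51 and 10.59 in COMBO, 11.13, 11.03 and 10.77 in SAHA and 10.49, 10.78 and 10.73 in pargyline, against 11.05, 10.89 and 10.83 in DMSO arrays. The COMBO values overlapped those of each other group, while pargyline lay below DMSO with no overlap. The differences from DMSO were -0.27 ± 0.12 in COMBO, 0.05 ± 0.12 in SAHA and -0.26 ± 0.12 in pargyline (adjusted p = 0.0952, 0.889 and 0.22). With arrays centred on their medians the COMBO and pargyline differences passed, at -0.43 (adjusted p = 0.00981) and -0.39 (0.0272), where the median gene stood at -0.17 and -0.15. COMBO against DMSO also passed with array weights (adjusted p = 0.0188) and without COMBO replicate 1 (0.0344), and COMBO against SAHA with array weights (0.0388) and without SAHA replicate 3 (0.0451). A second CDK2 probe set gave -0.35 ± 0.15 in COMBO, and the third lay between 1.98 and 2.08 on all arrays.

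CCNA2 encodes cyclin A, the partner of CDK2 in S phase. It read 9.40, 8.68 and 9.28 in COMBO, 10.61, 10.49 and 10.47 in SAHA and 11.02, 11.27 and 10.99 in pargyline, against 11.61, 11.40 and 11.72 in DMSO arrays. The 4 groups stood in this order with no overlap between neighbours. The change was -2.46 ± 0.17 in COMBO, -1.05 ± 0.17 in SAHA and -0.48 ± 0.17 in pargyline, which did not pass (adjusted p = 1.5e-06, 0.000551 and 0.0936). The pargyline change passed when pargyline and DMSO were fitted without the other groups (limma adjusted p = 0.0435). COMBO was 2.65-fold lower than SAHA (adjusted p = 0.00123), and 0.217% of all genes lay at least as far down in that comparison. The second CCNA2 probe set gave larger falls, -3.58 ± 0.35 in COMBO and -1.97 ± 0.35 in SAHA, and -0.73 ± 0.35 in pargyline, which did not pass. Its COMBO arrays were spread widely, at 8.56, 7.02 and 8.46 (SD 0.87).

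CCNB1 and CCNB2 encode the B-type cyclins of mitosis. CCNB1 read 11.01, 10.54 and 10.80 in COMBO, 11.52, 11.50 and 11.49 in SAHA and 12.76, 12.57 and 12.45 in pargyline, against 13.07, 12.94 and 13.14 in DMSO arrays. CCNB2 read 10.19, 9.40 and 9.95 in COMBO, 11.08, 10.83 and 10.82 in SAHA and 12.10, 12.16 and 12.01 in pargyline, against 12.61, 12.52 and 12.59 in DMSO arrays. For both, the groups rank DMSO, pargyline, SAHA, COMBO from high to low, with no overlap between neighbours. CCNB1 changed by -2.27 ± 0.11 in COMBO, -1.54 ± 0.11 in SAHA and -0.46 ± 0.11 in pargyline (adjusted p = 1.98e-07, 2.72e-06 and 0.0256). CCNB2 differed by -2.73 ± 0.17 in COMBO, the largest fall of the 10 genes, by -1.66 ± 0.17 in SAHA and by -0.48 ± 0.17 in pargyline (adjusted p = 6.22e-07, 1.97e-05 and 0.0837). Pargyline did not pass for CCNB2 in the fit of all 4 groups. It passed when pargyline and DMSO were fitted without the other groups (limma adjusted p = 0.00515). Over the 12 arrays the 2 genes correlated at r = 0.993, a description that the 4 groups largely set.

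CDK1, the kinase that B-type cyclins activate, did not pass with SAHA alone, where both B-type cyclins were lower. It read 13.32, 12.49 and 13.22 in COMBO, 14.01, 13.84 and 13.92 in SAHA and 13.62, 13.85 and 13.67 in pargyline, against 13.95, 13.96 and 14.16 in DMSO arrays. On this, the brightest probe set, COMBO lay below all other arrays, and SAHA overlapped DMSO. The change was -1.01 ± 0.19 in COMBO (adjusted p = 0.00108), and the differences of -0.10 ± 0.19 in SAHA and -0.31 ± 0.19 in pargyline did not pass (0.83 and 0.353). Of its other probe sets, each gave a larger SAHA difference that did not pass, -0.37 ± 0.19 and -0.36 ± 0.21, and falls of -1.25 ± 0.19 and -1.24 ± 0.21 in COMBO. On both, all SAHA arrays lay below all DMSO arrays. The first read 12.18, 11.75 and 11.88 in SAHA against 12.37, 12.30 and 12.27 in DMSO arrays. The other read 12.61, 12.18 and 12.37 against 12.75, 12.73 and 12.76. COMBO replicate 2 was the lowest array for CDK1, and without it the COMBO change was -0.75 (adjusted p = 0.000142). The same array was the lowest of its group for CDK2, CCNE2, CCNA2, CCNB1 and CCNB2, and the COMBO changes without it were -1.78 for CCNE2, -2.24 for CCNA2, -2.15 for CCNB1 and -2.51 for CCNB2.

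**Figure D3:**
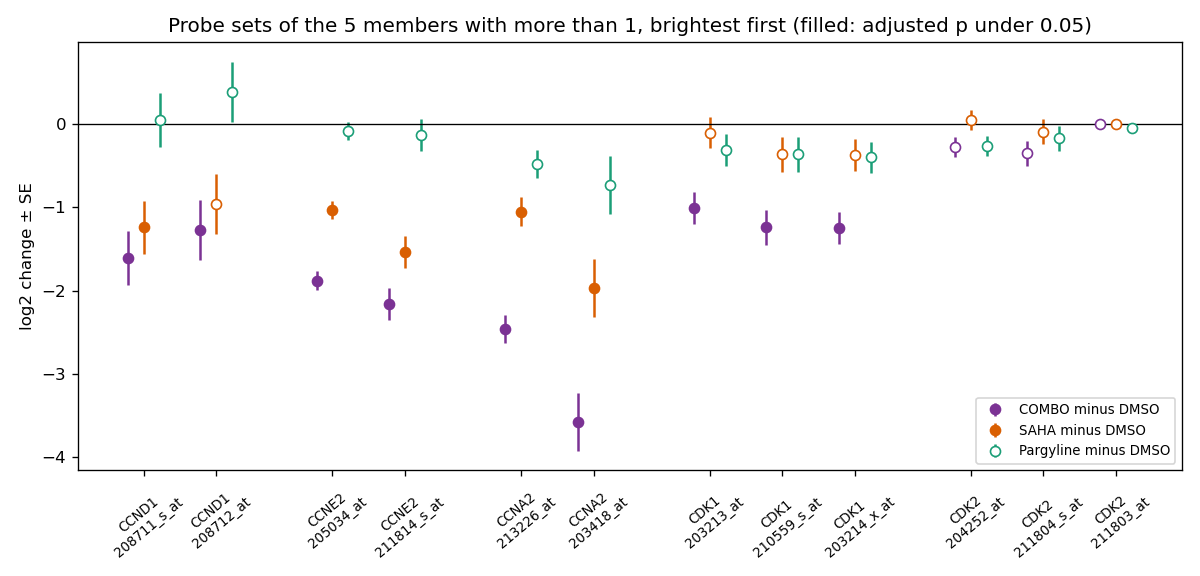
Log2 change against DMSO with its standard error (vertical axis) for each probe set of the 5 genes that have more than 1, brightest first. Filled points had a limma adjusted p under 0.05 over all probe sets. The 2 probe sets of CCNA2 differ in size, and the dimmest CDK2 probe set lies between -0.04 and 0.

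COMBO against SAHA asks what pargyline added to SAHA. CCNA2 fell by 2.65-fold, CCNB2 by 2.09-fold, CDK1 by 1.88-fold, CCNE2 by 1.80-fold and CCNB1 by 1.65-fold, while CCND1, CCND3, CCNE1, CDK2 and CDK4 did not pass. Thus 5 members were lower and 0 higher in limma, where 8.71% of genes were lower and 7.88% higher, with 16.6% past the threshold, and 0 members were higher at an unadjusted p under 0.05. The groups did not overlap for 6 members, against 37.6% of all genes. The share of called genes that were higher was 34.7% after centring against 47.5%. The CDK1 difference of -0.91 ± 0.19 (adjusted p = 0.00976) did not pass when COMBO and SAHA were fitted without the other groups (adjusted p = 0.0745), and that of CCNE2 did not pass on its second probe set. For CCND1 the difference was -0.37 ± 0.32 (adjusted p = 0.502).

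COMBO against pargyline asks what SAHA added to pargyline. CCNB2 fell by 4.74-fold, CCNA2 by 3.93-fold, CCNB1 by 3.52-fold, CCNE2 by 3.48-fold, CCND1 by 3.15-fold, CDK4 by 2.46-fold, CDK1 by 1.63-fold and CCNE1 by 1.55-fold. CCND3 rose by 2.63-fold, and CDK2 alone did not pass. So 8 members were lower and 1 higher, where 47.5% of genes passed, 23.6% lower and 23.9% higher. The groups did not overlap for 9 members, against 53.2% of all genes. For CDK1 the groups fitted alone gave an adjusted p of 0.0564 in place of 0.00995, and without COMBO replicate 2 its difference was -0.45 in place of -0.71.

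SAHA set directly against pargyline gave 7 lower, 1 higher and 2 that did not pass, with 46.2% of genes past the threshold, 22.7% lower and 23.4% higher. The groups did not overlap for 8 members, against 50.9% of all genes. CCND1 was 2.45-fold lower, CCNB2 2.27-fold, CDK4 2.23-fold and CCNB1 2.13-fold lower in SAHA than in pargyline arrays, and CCND3 was 2.77-fold higher. CCNE2 was 1.94-fold, CCNA2 1.48-fold and CCNE1 1.41-fold lower in SAHA. CDK1 was 0.20 ± 0.19 higher in SAHA and CDK2 0.31 ± 0.12 higher, neither of which passed (limma adjusted p = 0.448 and 0.0666). The CCNA2 call was lost without SAHA replicate 2, SAHA replicate 3 or pargyline replicate 2 (adjusted p = 0.0594, 0.0597 and 0.0759).

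The interaction is the COMBO change minus the sum of the SAHA and pargyline changes on the log2 scale. It passed for CCNE2 and CCNE1, both negative, and for 0 members in the positive direction in limma, with 0 positive and 5 negative at an unadjusted p under 0.05. Of all genes 3.72% passed, 2.44% with a negative and 1.28% with a positive interaction, and centring made 50.6% of called genes positive against 34.4%. CCNE2 changed by -1.88 in COMBO against a sum of -1.11, an interaction of -0.76 ± 0.15 (adjusted p = 0.0271). It did not pass without any 1 of 7 of the arrays (DMSO replicate 2 or 3, SAHA replicate 1, pargyline replicate 1, 2 or 3, or COMBO replicate 2), with adjusted p from 0.0521 to 0.0724. The second CCNE2 probe set gave -0.49 ± 0.27, which did not pass (adjusted p = 0.453). CCNE1 changed by -0.09 in COMBO against a sum of 0.58, an interaction of -0.67 ± 0.12 (adjusted p = 0.0184), which missed the threshold with quantile normalization (0.0502), centring (0.052) and a trended robust prior (0.0563).

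The interaction was -0.92 ± 0.24 for CCNA2 (limma adjusted p = 0.0757), which did not pass as deposited. It passed with array weights (-1.07, adjusted p = 0.0443), with a trended robust prior (0.0471) and without dim genes (0.0366). It did not pass without COMBO replicate 2 (-0.71, adjusted p = 0.0594) or SAHA replicate 3 (-0.95, 0.115). The second CCNA2 probe set gave -0.88 ± 0.5, which did not pass (adjusted p = 0.474 over all probe sets). The values for CDK1 (-0.60 ± 0.26), CCNB2 (-0.58 ± 0.24), CCND1 (-0.42 ± 0.45), CCNB1 (-0.27 ± 0.16) and CDK2 (-0.07 ± 0.17) were negative and did not pass. Those for CDK4 (0.12 ± 0.09) and CCND3 (0.10 ± 0.17) were positive and did not pass.

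**Figure D4:**
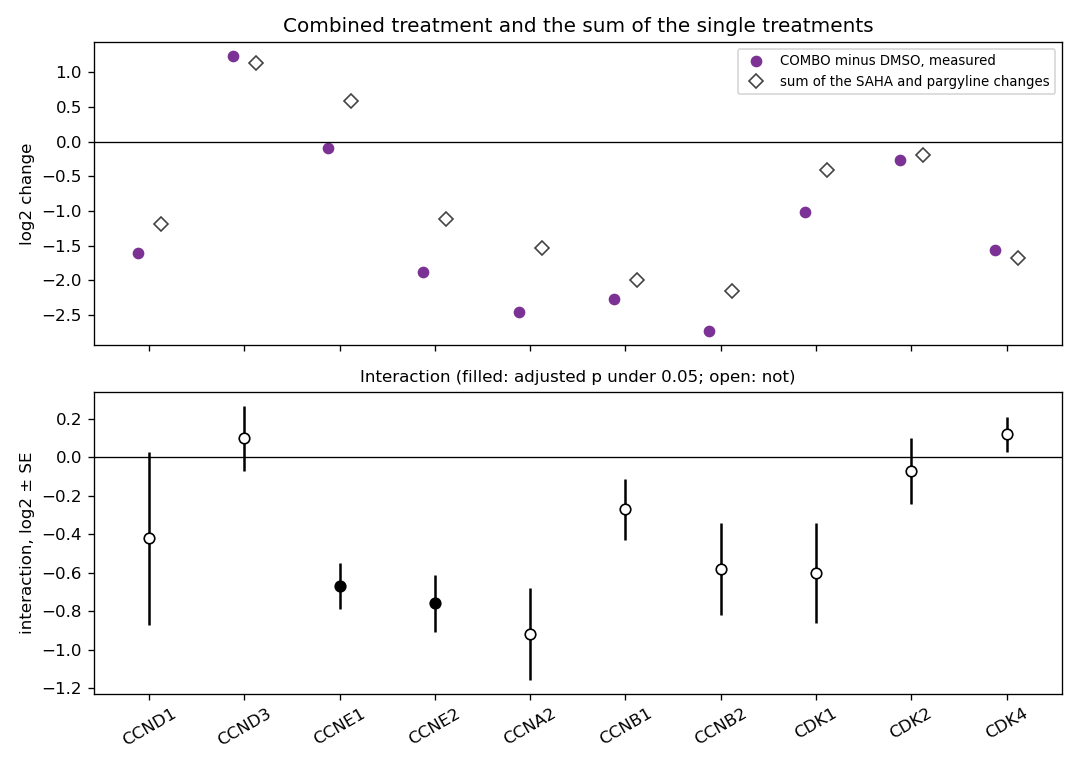
Upper panel: measured log2 change of COMBO against DMSO (filled circles) and the sum of the SAHA and pargyline changes (open diamonds) for the 10 genes. Lower panel: the interaction with its standard error, filled where the limma adjusted p was under 0.05, as for CCNE1 and CCNE2.

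Other genes of the CDK network were taken from 6 lists with 93 entries, of which 84 were measured. In COMBO 41 of them were lower, 23 higher and 20 did not pass against DMSO. In SAHA 40 were lower, 23 higher and 21 did not pass. In pargyline 22 were lower, 5 higher and 57 did not pass. The lower genes were 48.8% of the 84 in COMBO, 47.6% in SAHA and 26.2% in pargyline, where 24.0%, 23.1% and 7.45% of all genes were lower. The higher genes were 27.4% in COMBO, 27.4% in SAHA and 5.95% in pargyline, where 24.3%, 23.0% and 8.48% of all genes were higher. The medians of these 84 genes were -0.27 in COMBO, -0.29 in SAHA and -0.10 in pargyline, and those of all genes -0.01, 0.0 and -0.02. The counts by list below stand beside these shares of all genes, and nothing particular to a list was tested. Where a listed gene is named for some groups only, a group left out does not mean that the gene was unchanged there.

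CDK inhibitors, proteins that bind and block CDKs or their cyclin complexes, were measured for 7 genes. In COMBO 3 rose and 1 fell, in SAHA 3 rose and 0 fell, and in pargyline 1 rose and 2 fell. Lower genes numbered 3 in COMBO and 2 in SAHA with centring, and 1 in SAHA without SAHA replicate 3. CDKN1A, which encodes p21, rose by 4.90 ± 0.25 in COMBO, 3.82 ± 0.25 in SAHA and 2.08 ± 0.25 in pargyline over DMSO (limma adjusted p = 1.93e-07, 1.11e-06 and 0.000736). CDKN1C (p57) rose by 2.82 ± 0.33 in COMBO and 2.89 ± 0.33 in SAHA, and CDKN2D (p19), an inhibitor of the cyclin D kinases, by 0.84 ± 0.10 in COMBO and 0.99 ± 0.10 in SAHA. In pargyline CDKN2D fell by 0.64 ± 0.10, and CDKN1C differed by -0.24 ± 0.33, which did not pass. CDKN1B (p27) passed in none of the 3. CDKN2A and CDKN2B had group means from 2.49 to 2.53 and from 1.5 to 1.52, with no difference that passed. CDKN3, a phosphatase that acts on CDKs, changed by -0.37 ± 0.08 in COMBO and -0.75 ± 0.08 in pargyline.

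The list of CDK phosphoregulation holds genes of kinases, phosphatases and proteins that bind them, both activators and inhibitors of CDKs. Of its 13 genes, 9 fell and 3 rose in COMBO and in SAHA, and 5 fell and 0 rose in pargyline. The 5 in pargyline were 3 without DMSO replicate 1, DMSO replicate 2 or pargyline replicate 3. PLK1, a kinase that promotes mitotic entry, averaged 2.47 in COMBO, 3.41 in SAHA and 6.4 in pargyline arrays, against 7.67 in DMSO arrays, and passed as lower in all 3 (limma adjusted p = 2.04e-07, 8.46e-07 and 0.0109). Its COMBO and SAHA levels were near those of PTPRC (2.46 to 2.55) and ESR1 (3.08 to 3.15), so no size is given for these falls. AURKA, which activates PLK1, changed by -2.56 ± 0.12 in COMBO and -2.02 ± 0.12 in SAHA. The phosphatase gene CDC25A, whose product activates CDK2, changed by -1.97 ± 0.24 in COMBO, and CDC25B, whose product activates CDK1, by -1.68 ± 0.05 in SAHA. CDC25A averaged 7.65 in SAHA and 9.13 in pargyline arrays, against 9.2 in DMSO arrays.

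Of 16 measured genes of the RB, E2F and DREAM list, 9 fell and 3 rose in COMBO and in SAHA, and 4 fell and 1 rose in pargyline. With centring 7 fell and 0 rose in pargyline, and 0 rose without DMSO replicate 2, DMSO replicate 3 or pargyline replicate 2. FOXM1, an activator of the B-type cyclin genes, changed by -2.28 ± 0.15 in COMBO and -2.32 ± 0.15 in SAHA. E2F8, a repressor of the E2F family, changed by -2.54 ± 0.14 in COMBO and -0.67 ± 0.14 in pargyline. In SAHA arrays E2F8 averaged 9.1, against 10.76 in DMSO arrays. E2F5 changed by -3.09 ± 0.38 in SAHA and -1.94 ± 0.38 in COMBO, and averaged 8.97 in pargyline against 8.69 in DMSO arrays. TFDP2, a dimer partner of E2F proteins, rose by 1.69 ± 0.07 in SAHA.

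The list of cyclin destruction holds parts of that machinery and also inhibitors of the anaphase-promoting complex, namely FBXO5, MAD2L1 and BUB1B. Of its 20 measured genes, 12 fell and 3 rose in COMBO, 10 fell and 6 rose in SAHA, and 7 fell and 0 rose in pargyline. With centring 1 rose in COMBO and 1 in SAHA, and 11 fell in pargyline. The 6 that rose in SAHA were 2 without SAHA replicate 1 and 3 without SAHA replicate 2, and the 7 that fell in pargyline were 4 without DMSO replicate 2. UBE2C, the ubiquitin-conjugating enzyme of the anaphase-promoting complex, changed by -3.07 ± 0.16 in COMBO, -2.04 ± 0.16 in SAHA and -0.69 ± 0.16 in pargyline. SKP2, which marks p27 for destruction, changed by -2.40 ± 0.06 in COMBO and -1.91 ± 0.06 in SAHA, and the scaffold gene CUL1 by -2.80 ± 0.21 in COMBO and -2.49 ± 0.21 in SAHA. In pargyline arrays SKP2 averaged 11.57 against 12.01 in DMSO arrays, and CUL1 10.57 against 10.64. CDC20, an activator of the anaphase-promoting complex, changed by -1.05 ± 0.17 in pargyline.

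**Figure D5:**
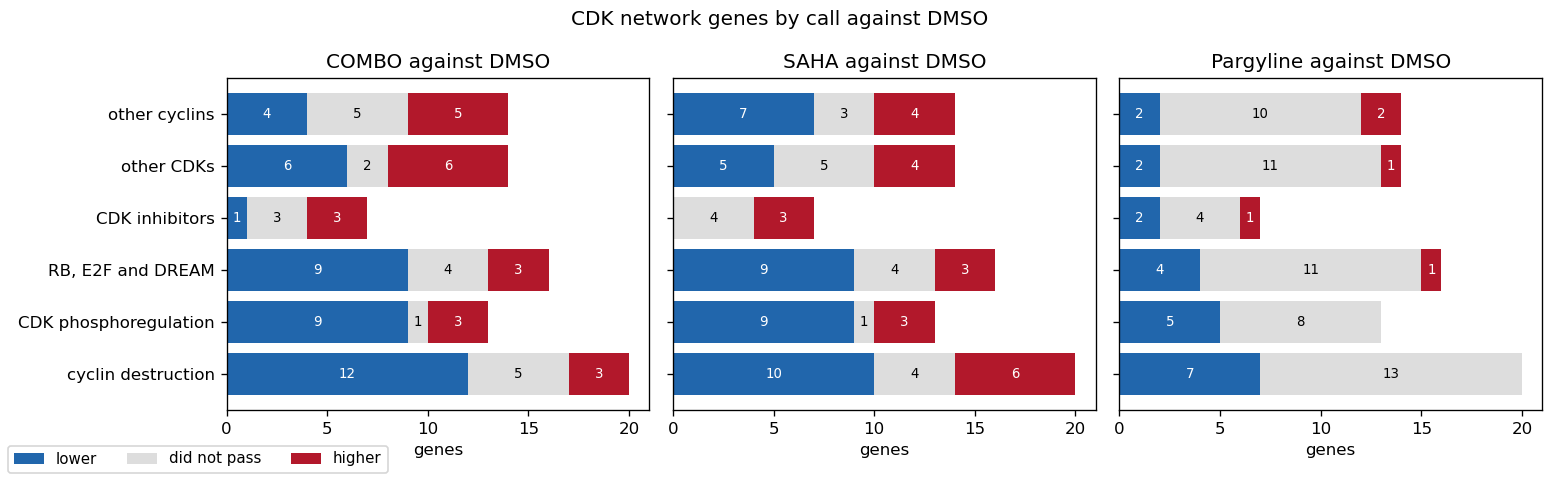
Number of genes (horizontal axis) in 6 lists of the CDK network that were lower, did not pass or were higher against DMSO in limma, for COMBO, SAHA and pargyline from left to right. Pargyline leaves most genes of each list unpassed, for example 13 of 20 in cyclin destruction.

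Other cyclins and CDKs went both ways. Of 14 other cyclin genes, 5 rose and 4 fell in COMBO, 4 rose and 7 fell in SAHA, and 2 rose and 2 fell in pargyline, where 4 fell with centring. CCNG2, a cyclin linked to growth arrest, rose by 1.74 ± 0.24 in COMBO, 1.40 ± 0.24 in SAHA and 1.44 ± 0.24 in pargyline. CCNF changed by -1.53 ± 0.14 in COMBO, -1.13 ± 0.14 in SAHA and -1.02 ± 0.14 in pargyline. Of 14 other CDK genes, 6 rose and 6 fell in COMBO, 4 rose and 5 fell in SAHA, and 1 rose and 2 fell in pargyline. There 4 fell with centring and 1 without any 1 DMSO or pargyline array, and 3 rose with the replicate block or array weights, 2 without DMSO replicate 3 and 0 without DMSO replicate 1. CDK5, best known for its role in neurons, rose by 1.15 ± 0.11 in COMBO and 1.23 ± 0.11 in SAHA, and CDK10 changed by -1.64 ± 0.12 in COMBO and -1.5 ± 0.12 in SAHA.

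Among 5981 genes above the median level, those most like CCNB1 over the 12 arrays were UBE2C (Pearson r = 0.997), CENPE (0.997) and GTSE1 (0.995). Those most like CCNE2 were FEN1 (0.988), the member CCNB2 (0.987) and FANCI (0.986). Those most like CCND1 were S100A10 (0.977), N4BP2L2 (0.974) and IL1RAPL1 (0.974). The arrays share 4 groups, and may share their normalization, so these values describe a common order of groups. Within the members, CCNB1 correlated with CCNE2 at 0.976, with CCNA2 at 0.954 and with CDK4 at 0.956, but with CDK1 at 0.719 and with CDK2 at 0.230.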

How the data were processed

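RNA from 12 cultures of MDA-MB-231 cells had been labelled with biotin and hybridised to Affymetrix arrays of 22277 probe sets. The authors deposited log2 intensities made with RMA, per the submitters' processing notes; its version, and whether the 12 arrays were normalized together, are not given in the sources used here. The deposited values were used as they stand, with no further background correction or scaling. Where arrays are normalized together, RMA sets each relative to the others, so a shift common to most genes could be missed. Of the probe sets, 62 are controls and 19064 are listed for 1 gene, with symbols updated through RefSeq (GRCh38.p14). Each of 11963 genes was tested by its brightest probe set; 4310 genes, among them 5 members, had more than 1. No positions are given other than those of RefSeq promoters.

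One linear model with 4 group means and 8 residual degrees of freedom was fitted to all genes in limma 3.58.1 under R 4.3.3 (lmFit, eBayes). Errors are standard errors, tests are two-sided, and the threshold was a p of 0.05 after Benjamini-Hochberg adjustment across all 11963 genes. The number of arrays limits the precision, and depth does not apply. The labels call the replicates biological, and p-values measure the spread between them. Groups follow the sample titles. The procedure was tested on simulated data.

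The members and lists were chosen with earlier results of these data known. Named were all members, all CDK inhibitors, up to 3 genes that passed and changed most per other list and comparison, and the 3 genes most like CCND1, CCNE2 and CCNB1. Alternatives were quantile normalization, array centring, a filter on dim genes, the mean of probe sets or each alone, a block for replicate number, a robust prior with a trend, array weights, a fit of only the groups compared, a threshold of 0.01, a 2-fold change, and leaving out each array. Lists were only counted.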

Additional observations from a re-analysis of the deposited data

Results flagged for a closer look

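The effect of pargyline on CCNE2 differed between cells with and without SAHA in limma's interaction test, with an interaction of -0.76 ± 0.15 on the log2 scale. Pargyline changed CCNE2 by -0.84 on top of SAHA and by -0.08 on top of DMSO. All 3 COMBO arrays lay below all 3 SAHA arrays, while pargyline and DMSO arrays overlapped. The interaction did not pass without any 1 of 7 of the 12 arrays (adjusted p from 0.0521 to 0.0724), with the mean of probe sets (-0.63, 0.129) or on the second probe set (-0.49, 0.453).

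CCNE1 was singled out by the same test, with an interaction of -0.67 ± 0.12. Pargyline changed CCNE1 by -0.13 on top of SAHA, which did not pass, and by 0.54 on top of DMSO, where all 3 pargyline arrays lay above all 3 DMSO arrays. The interaction did not pass with quantile normalization (adjusted p = 0.0502), centring (0.052) or a trended robust prior (0.0563), and CCNE1 lies below the level of the median gene.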

How the results depend on the processing

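Of 70 tests of members, 42 passed the threshold. Of these, 35 kept direction and call on the brightest probe set in every alternative that gave a value, stricter thresholds aside. For 33 of the 35 no other probe set of the gene failed to pass. CCND3, CCNE1, CCNB1, CCNB2 and CDK4 have 1 probe set each, so their calls meet this with no second reading. The 4 calls of CCNE1 have no value under the dim filter. Another probe set did not pass for CCND1 in SAHA against DMSO, CCNE2 in COMBO against SAHA and the CCNE2 interaction. No call reversed. Against DMSO, the members lower in pargyline numbered 2 as reported, 6 with array centring, 4 without dim genes, and 0 at an adjusted p under 0.01 or at 2-fold in limma (4 at an unadjusted p under 0.05); without single arrays they numbered 0 to 5. They were 0 without DMSO replicate 1 or pargyline replicate 2 or 3, and 1 without DMSO replicate 2 or 3 or pargyline replicate 1. They were 3 without COMBO replicate 1 and 5 without COMBO replicate 2. All groups share a single spread in the fit, so a COMBO array can alter these p-values but not the pargyline changes. Without COMBO replicate 2 the changes of CCNA2, CCNB2 and CDK1 stayed at -0.48, -0.48 and -0.31. With only pargyline and DMSO fitted, CCNA2 and CCNB2 joined and CDK4 was lost. The 1 member higher in pargyline, CCNE1, was below the dim filter and under 2-fold, leaving 0. Members lower in COMBO than in SAHA were 2 at 2-fold, in place of 5. Members lower in SAHA than in pargyline were 4 at 2-fold, in place of 7, and those higher were 2 without dim genes and 1 to 2 without single arrays, with CDK2 joining CCND3 without SAHA replicate 3 or COMBO replicate 1. For the network lists, moves with centring or without single arrays stand beside their counts. At an adjusted p under 0.01, genes lower in pargyline numbered 2 in place of 5 for phosphoregulation, 1 in place of 4 for RB, E2F and DREAM, and 4 in place of 7 for cyclin destruction. Genes of cyclin destruction higher in SAHA then numbered 2 in place of 6, and 0 at 2-fold. At 2-fold, genes lower in SAHA were 2 in place of 7 for other cyclins, 1 in place of 5 for other CDKs and 5 in place of 9 for RB, E2F and DREAM. Those lower in pargyline were 0 in place of 4 for RB, E2F and DREAM and 1 in place of 7 for cyclin destruction. Negative interactions numbered 2 as reported, 1 with quantile normalization, with array centring and with the mean of probe sets, 0 at the stricter p or at 2-fold (5 at an unadjusted p under 0.05), and 1 to 2 without single arrays. With array weights CCNA2 passed in addition to CCNE1 and CCNE2 (-1.07, limma adjusted p = 0.0443).

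With replicate number as a block, no member's call changed: 6 were lower in SAHA and 7 in COMBO against DMSO, as without it. Over all genes the block raised the interaction calls to 670 from 445 and the pargyline calls to 2328 from 1905. The labels do not say what the numbers share; 13 of 18 same-numbered pairs had correlated deviations over 0.1, and all 12 arrays correlated best with their own number.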

Other observations

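CCNA1, which encodes a cyclin A best known from the male germ line, moved apart from CCNA2. CCNA1 averaged 10.27 in SAHA and 8.01 in pargyline arrays, against 8.97 in DMSO arrays. It rose by 1.30 ± 0.07 in SAHA and fell by 0.96 ± 0.07 in pargyline (SE, n = 3 per group, limma adjusted p = 2.34e-07 and 5.78e-05). COMBO averaged 9.58, which was 1.56 ± 0.07 above pargyline and differed from SAHA by -0.69 ± 0.07.

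CCNL1 and CCNL2, cyclins of RNA splicing, had positive interactions of 1.16 ± 0.15 and 0.73 ± 0.12 (limma adjusted p = 0.00513 and 0.0158), where both E-type cyclins had negative ones. CCNL1 averaged 10.23 in COMBO and 9.04 in SAHA arrays.

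Replicate 3 was the highest array for CCND1 in both groups treated with SAHA, at 10.54 in COMBO and 11.04 in SAHA, on its brighter probe set. Its second probe set gave 10.55 in COMBO and 11.14 in SAHA for the same arrays.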
